A study of Homo sapiens with 6 samples.

Results

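The messenger RNAs of 10 polypeptide GalNAc-transferases, the enzymes that begin mucin-type O-glycosylation, were followed in A2780 cells carrying a control vector or a hairpin against USP39. The members were GALNT1, GALNT2, GALNT3, GALNT6, GALNT7, GALNT10, GALNT11, GALNT12, GALNT14 and GALNT18, taken by gene symbol from a table of 16571 symbols, and all 10 had a row. The members were chosen by name with the results of this same comparison known. GALNT18 was selected on its difference in counts between shUSP39 and pGIPZ-NC, and ranked 5th by size of rise among genes with a high level and separate groups. The values of the members in the 2 groups are therefore given as a description, without a p-value.

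RNA-seq was performed on A2780, an established human ovarian cancer cell line that the labels class as serous. All 6 libraries came from cells infected with lentivirus, 3 with pGIPZ-NC, the control of a short hairpin vector, and 3 with a hairpin against USP39, a spliceosome protein (shUSP39). The comparison asks which transcripts change when USP39 is depleted. The hairpin in each shUSP39 library, and whether the cells were clonal, is not given in the sources used here.

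Polypeptide GalNAc-transferases sit in the Golgi and attach the first sugar, N-acetylgalactosamine (GalNAc), to serine or threonine of a protein, using UDP-GalNAc as donor. Other enzymes then extend this sugar into core structures and cap them with sialic acid, fucose or sulfate. Some family members start on bare peptides, such as GALNT1 and GALNT2, and others, such as GALNT7 and GALNT10, prefer peptides that already carry GalNAc. Altered O-glycans are a well-known feature of carcinomas, including those of the ovary.

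Promoter windows are shown here, as the sequence context of the values that follow, for the members that passed the filter on low counts, had a window and had libraries that separated by group. Each window held 300 bases, 250 before and 50 after a RefSeq start, on build GRCh38.p14, and 8 of the 10 members had at least 1 window. GALNT18 and GALNT6 are named only. Capitals mark matches on either strand to the GC box GGGCGG or the CCAAT box CCAAT, so CCGCCC and ATTGG are the same motifs on the other strand, and overlapping matches were each counted. For GALNT1, which had 3 windows, the one with the most GC box matches is shown.
GALNT1, chr18:35581490-35581789, strand +: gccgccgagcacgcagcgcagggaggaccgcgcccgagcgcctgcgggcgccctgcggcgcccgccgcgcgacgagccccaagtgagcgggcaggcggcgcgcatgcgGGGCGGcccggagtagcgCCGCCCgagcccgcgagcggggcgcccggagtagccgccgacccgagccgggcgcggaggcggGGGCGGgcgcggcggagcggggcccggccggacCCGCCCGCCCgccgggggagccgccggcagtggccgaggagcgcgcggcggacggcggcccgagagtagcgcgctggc
GALNT7, chr4:173168561-173168860, strand +: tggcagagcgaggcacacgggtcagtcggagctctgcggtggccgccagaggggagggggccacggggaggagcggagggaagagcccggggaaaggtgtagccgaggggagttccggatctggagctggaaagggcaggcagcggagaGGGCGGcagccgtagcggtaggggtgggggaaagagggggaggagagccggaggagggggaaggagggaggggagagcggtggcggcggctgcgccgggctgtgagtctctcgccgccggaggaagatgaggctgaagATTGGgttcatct
GALNT10, chr5:154190483-154190782, strand +: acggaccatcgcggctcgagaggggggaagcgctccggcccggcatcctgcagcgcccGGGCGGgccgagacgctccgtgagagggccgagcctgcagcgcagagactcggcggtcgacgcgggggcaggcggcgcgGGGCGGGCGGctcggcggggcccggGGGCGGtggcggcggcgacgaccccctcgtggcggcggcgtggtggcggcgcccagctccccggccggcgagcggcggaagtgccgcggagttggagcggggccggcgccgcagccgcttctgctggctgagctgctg
GALNT12, chr9:98807420-98807719, strand +: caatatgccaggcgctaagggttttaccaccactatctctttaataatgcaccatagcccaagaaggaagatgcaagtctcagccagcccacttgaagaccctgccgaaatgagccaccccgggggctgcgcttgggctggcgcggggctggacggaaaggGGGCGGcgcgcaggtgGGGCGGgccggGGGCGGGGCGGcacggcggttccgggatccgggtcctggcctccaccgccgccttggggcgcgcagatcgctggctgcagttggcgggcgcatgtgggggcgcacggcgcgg

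These windows differed in base composition and in the motifs they held. The GALNT1 window, picked for its GC box matches, had a GC content of 86.0% and 5 such matches. The other GALNT1 windows had a GC content of 51.7% and 82.7%, with 0 and 1 GC box matches. The GALNT10 and GALNT12 windows each had 4 GC box matches, at a GC content of 81.0% and 68.7%. The GALNT7 window had 1 GC box and 1 CCAAT box match, with the CCAAT box on the reverse strand near the end of the window. Over all 35116 windows the median GC content was 58.7%, 45% held a GC box and 34.6% a CCAAT box. None of the 11 windows of the members held the TATA box TATAAA, the E-box CACGTG or the core of the interferon-stimulated response element, which 11.5%, 7.26% and 3.57% of all windows held. A match is a description of the letters, not a bound site.

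The depth lay between 28294819 and 32939264 counts per library. Genes with at least 1 count numbered 12662 to 12809 in the pGIPZ-NC libraries and 12819 in shUSP39 replicate 1, but 15446 and 14890 in shUSP39 replicates 2 and 3, which therefore stood apart. Results that rest on those 2 libraries are given below also with shUSP39 replicate 1 alone. USP39 was not analysed here, and the knockdown was thus not checked in these counts. Of the ovarian epithelial markers, PAX8, EPCAM and CDH1 had at most 6 counts in any library, and WT1 and FOLR1 were not analysed here. The keratins of the same list went both ways in the edgeR fit. KRT19 had 616 to 836 counts in pGIPZ-NC and 51 to 68 in shUSP39 and fell by 3.64 on the log2 scale (edgeR adjusted p = 3.51e-17), and KRT8 had 26 to 37 counts against at most 3 and also fell (edgeR adjusted p = 4.13e-05). KRT18, chosen after its values were seen, rose by a log2 fold change of 0.56 (edgeR adjusted p = 1.51e-05). Of 11 epithelial markers, 9 had a row and none was at 0 in every library, and their summed level, which hides these opposite changes, was 47.2 to 49.6 counts per 1000000 counts (CPM) in pGIPZ-NC and 34.5 to 41.2 CPM in shUSP39. Markers of blood, endothelial and fibroblast cells, of which 10 of 11 had a row, summed to 1449 to 1495 CPM and 802 to 852 CPM, almost all of it the collagen gene COL3A1. None of the 10 was at 0 in every library. Of the fibroblast markers, LUM had 97 to 176 counts in pGIPZ-NC and 3 to 16 in shUSP39, DCN had 22 to 49 and 0 to 6, and both fell (edgeR adjusted p = 7.34e-09 and 0.000191). COL1A1 of the same list, chosen after its values were seen, overlapped, with 198 to 245 counts in pGIPZ-NC and 187 to 212 in shUSP39. Its log2 fold change was -0.2 (edgeR adjusted p = 0.380). The macrophage marker CD68 had 295 to 382 counts over all 6 libraries, with an edgeR adjusted p of 0.825, while PTPRC and CD3E, which define blood cells and T cells, had at most 7 counts, the last 3 named after their values were seen. Whether these shifts have a part in the GALNT values was not tested.

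GALNT18 differed most between the groups. GALNT18 lies on chromosome 11, at 11292424 to 11643552 on the minus strand of GRCh37, with 11 exons. It belongs to a subfamily, with GALNT8, GALNT9 and GALNT17, whose members show little or no transferase activity in standard assays. Its row held 2, 16 and 16 counts in control replicates 1, 2 and 3, and 371, 354 and 379 counts in the matching order of shUSP39 libraries. The control libraries were near the limit of counting, with 95% exact Poisson intervals of 0.242 to 7.22 counts for replicate 1 and 9.15 to 26.0 counts for replicates 2 and 3, which cover counting error only. The 3 shUSP39 libraries lay close together and far above every control library.

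After scaling for library size and composition, GALNT18 stood at 0.374 ± 0.272 CPM in the controls and 11.99 ± 0.712 CPM in shUSP39 (SD, n = 3 libraries each). This is a 32.1-fold ratio of the mean levels and a log2 fold change of 5.01 (SE 0.29). The size of the ratio depended on the controls, since the shUSP39 mean was 24.3 times the level of pGIPZ-NC replicate 2 and 21.2 times that of replicate 3. Against replicate 1, with its 2 counts, the ratio was 191, with a 95% interval of 52.9 to 1578 for the counting error of that control. With each library left out in turn the log2 fold change lay between 4.49 and 5.40, and with shUSP39 replicate 1 alone it was 4.96. GALNT18 was 19th by log2 fold change among all genes past the adjusted p. In the narrower order of called genes whose shUSP39 mean reached 5 CPM and whose groups were separate, where it was 5th, OASL was the next above, with a log2 fold change of 5.94, and BAIAP2L2 the next below, with 4.58.

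**Figure D1:**
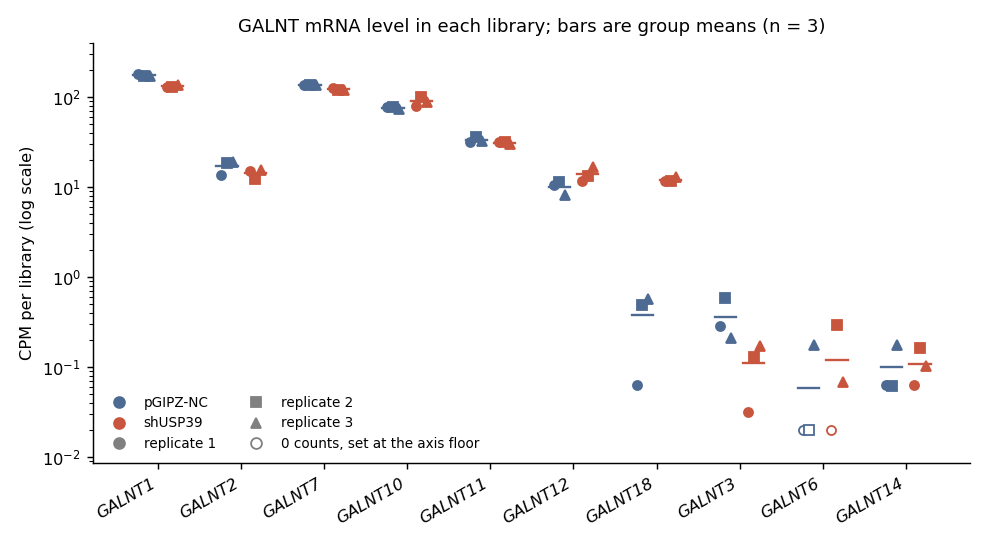
Level of each of the 10 GALNT genes in each library, in CPM on a log axis, with horizontal bars for the group means (n = 3 libraries) and open symbols for a count of 0. GALNT18 moved from under 1 CPM in the 3 pGIPZ-NC libraries to between 11.6 and 12.8 CPM in the 3 shUSP39 libraries, while GALNT1 sits at 172 to 182 CPM in pGIPZ-NC and 129 to 136 CPM in shUSP39.

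GALNT1 was lower in shUSP39, while GALNT2 and GALNT11 overlapped between the groups. GALNT1, a widely expressed initiator, lies on chromosome 18 at 33161081 to 33291798 on the plus strand, with 12 exons. It had 5797, 5604 and 4855 counts in the 3 pGIPZ-NC libraries, and 4125, 3989 and 4031 in shUSP39. All 3 shUSP39 libraries lay below all 3 controls, at 132 ± 3.91 CPM against 175 ± 5.53 CPM (SD, n = 3 each). The fitted log2 fold change was -0.41 (SE 0.04), and with shUSP39 replicate 1 alone it was -0.44.

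GALNT2, which glycosylates lipid-metabolism proteins among many others, lies on chromosome 1 at 230193737 to 230417868 on the plus strand. Its counts were 436, 595 and 528 in pGIPZ-NC and 476, 375 and 460 in shUSP39. The groups overlapped, at 16.9 ± 2.80 CPM and 14.2 ± 1.74 CPM (SD, n = 3 each), for a fitted log2 fold change of -0.25 (SE 0.12). GALNT2 had 2 transcripts in the table, and NM_004481.4 held at least 99.7% of its counts in every library.

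GALNT11, known for glycosylating NOTCH1 and receptors of the LDL receptor family, lies on chromosome 7 at 151722759 to 151819425 on the plus strand. It had 1005, 1173 and 925 counts in pGIPZ-NC and 1017, 958 and 889 in shUSP39. These overlapped, at 33.5 ± 2.38 CPM and 31.0 ± 0.891 CPM (SD, n = 3 each), for a fitted log2 fold change of -0.11 (SE 0.08).

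The enzymes that act on peptides already carrying GalNAc went both ways. GALNT7, on chromosome 4 at 174089962 to 174245118 on the plus strand, had 4275, 4404 and 3813 counts in pGIPZ-NC and 4005, 3693 and 3543 in shUSP39. After scaling, the shUSP39 libraries lay below the controls by a small margin, at 122 ± 2.88 CPM against 135 ± 0.764 CPM (SD, n = 3 each), a log2 fold change of -0.15 (SE 0.05). Under upper-quartile scaling, which moved the median of all genes to 0.05, this was -0.10.

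GALNT10, on chromosome 5 at 153570290 to 153800544 on the plus strand, had 2471, 2482 and 2088 counts in pGIPZ-NC. It had 2549, 3040 and 2620 counts in shUSP39. After scaling the groups did not overlap, at 76.0 ± 1.82 CPM and 89.2 ± 9.85 CPM (SD, n = 3 each), but shUSP39 replicate 1, at 79.65 CPM, lay close to the highest control, at 77.5 CPM. The log2 fold change was 0.23 (SE 0.07), and 0.07 with shUSP39 replicate 1 alone. MFAP3, which overlaps GALNT10 on the same strand and was chosen after its values were seen, had 16, 16 and 22 counts in pGIPZ-NC and 37, 27 and 56 in shUSP39. MFAP3 rose by a log2 fold change of 1.15 (edgeR adjusted p = 0.0446, SE 0.44), but its adjusted p lay between 0.0603 and 0.301 without either of pGIPZ-NC replicates 1 and 2 or shUSP39 replicates 1 and 3, and was 0.0592 under limma-voom. How reads were shared between the pair is not stated, and the part of MFAP3 in the GALNT10 counts was not tested.

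GALNT12, an enzyme of the digestive tract linked to inherited colorectal cancer, lies on chromosome 9 at 101569952 to 101612363 on the plus strand, with 10 exons. Its counts were 339, 369 and 229 in pGIPZ-NC and 369, 407 and 491 in shUSP39. The groups did not overlap after scaling, at 10.03 ± 1.71 CPM and 13.8 ± 2.57 CPM (SD, n = 3 each), for a fitted log2 fold change of 0.46 (SE 0.14). The margin was narrow, since the highest control lay at 11.4 CPM and the lowest shUSP39 library at 11.5 CPM. With shUSP39 replicate 1 alone the log2 fold change was 0.20, without pGIPZ-NC replicate 3 it was 0.32, and without shUSP39 replicate 3 it was 0.30.

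Another 3 members had too few counts to enter the fit and get no fold change. GALNT3, which protects the hormone FGF23 from cleavage, lies on chromosome 2 at 166604098 to 166651169 on the minus strand, and had 9, 19 and 6 counts in pGIPZ-NC and 1, 4 and 5 in shUSP39. All shUSP39 libraries lay below all controls, at 0.110 ± 0.0711 CPM against 0.360 ± 0.198 CPM (SD, n = 3 each). For the closest libraries, the Poisson intervals overlapped, at 2.20 to 13.1 counts for pGIPZ-NC replicate 3 and 1.62 to 11.7 counts for shUSP39 replicate 3. That overlap concerns these libraries only, and the difference between the groups was not tested. GALNT6, known from breast cancer, lies on chromosome 12 at 51745031 to 51786651 on the minus strand. It had 0, 0 and 5 counts in pGIPZ-NC and 0, 9 and 2 in shUSP39, and by the same intervals a count of 0 allows up to 3.69 counts. GALNT14, known for O-glycosylation of death receptors, lies on chromosome 2 at 31133333 to 31378068 on the minus strand. It had 2, 2 and 5 counts in pGIPZ-NC and 2, 5 and 3 in shUSP39. The groups overlapped for GALNT6 and for GALNT14, and neither gene was tested. GALNT14 has 3 rows but 6 RefSeq transcripts today, so its counts may also be too low.

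Of the 10 members, 7 were tested in the edgeR fit over 10695 genes and 3 were under the filter on low counts. Past a Benjamini-Hochberg adjusted p of 0.05 were 3 higher and 2 lower members, where 33.6% of all tested genes passed, 16.1% higher and 17.5% lower. Called, with a change over 2-fold as well, was 1 member, GALNT18, where 6.81% of all tested genes were called, 4.53% higher. The libraries of the groups did not overlap for 5 of the 7, against 44.2% of all tested genes, with 3 of the 7 above the controls, against 21.7%. The median log2 fold change of the 7 was -0.11, and 0.01 over all tested genes. Of the 5 members past the adjusted p, GALNT7 did not pass under upper-quartile scaling or without shUSP39 replicate 2 or 3, GALNT10 without shUSP39 replicate 2, and GALNT12 without pGIPZ-NC replicate 3 or shUSP39 replicate 3. GALNT2 passed without pGIPZ-NC replicate 1, and with shUSP39 replicate 1 alone only GALNT1 and GALNT18 did. These counts come from the comparison that the list was drawn from, and nothing is read from them.

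**Figure D2:**
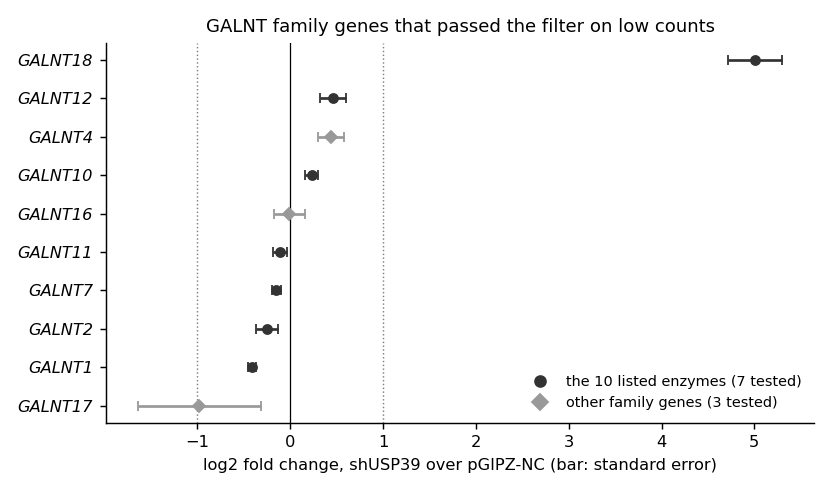
Log2 fold change (shUSP39 over pGIPZ-NC) of the GALNT family genes that passed the filter on low counts, with bars for the standard error and dotted lines at a change of 2-fold. GALNT18 lies at 5.01, and the other 9 genes lie between -0.98 (GALNT17) and 0.46 (GALNT12).

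Levels per transcript length (RPKM, CPM per kilobase, from the length of 1 reference transcript a gene) were used to order the enzymes. Counts may leave out reads that transcripts of a gene share. GALNT1, GALNT7, GALNT11 and GALNT18 have 1 row but 10, 4, 20 and 2 RefSeq transcripts today, against 1 for GALNT10 and GALNT12. Levels of different genes may therefore be too low by unlike amounts, which makes their order uncertain. In pGIPZ-NC the order was GALNT1, at 44.2 ± 1.39 RPKM (SD, n = 3), then GALNT7 at 31.8 ± 0.180, GALNT10 at 12.7 ± 0.305 and GALNT11 at 12.2 ± 0.867. GALNT10 and GALNT11 overlapped in these values. GALNT2 at 3.82 ± 0.633 and GALNT12 at 3.63 ± 0.617 RPKM also overlapped. GALNT18, GALNT3, GALNT14 and GALNT6 followed, each at most 0.226 RPKM in every library and each overlapping the next.

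In shUSP39 the 4 most abundant enzymes kept their order, with GALNT1 at 33.2 ± 0.985 RPKM, GALNT7 at 28.7 ± 0.678, GALNT10 at 15.0 ± 1.65 and GALNT11 at 11.3 ± 0.325 (SD, n = 3). Here no neighbours among the 4 overlapped. GALNT18, at 4.79 ± 0.284 RPKM, now stood beside GALNT12, at 4.996 ± 0.931 RPKM, and the libraries of the pair overlapped. GALNT2, at 3.22 ± 0.394 RPKM, lay below both.

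The share of each enzyme in the summed RPKM of the 17 family genes with a row was then computed in each library. These shares are of reads as counted, so the size of a share carries the same limit as the order of the genes. GALNT18 made up 0.0224%, 0.174% and 0.206% in the control libraries, and 4.52%, 4.40% and 4.80% in shUSP39. GALNT1 went from 39.6 ± 1.29% in controls to 31.7 ± 0.461% with the hairpin (SD, n = 3 each), without overlap. GALNT7 had overlapping shares, at 28.5 ± 0.417% and 27.4 ± 1.20%. The family's transcripts held a smaller share of GALNT1 and a larger share of GALNT18 in every shUSP39 library than in any control.

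The share of GALNT10 was 11.4 ± 0.184% in pGIPZ-NC and 14.3 ± 1.45% in shUSP39, and that of GALNT12 was 3.25 ± 0.509% and 4.76 ± 0.796% (SD, n = 3 each), in both cases without overlap. The shares of GALNT11, at 10.96 ± 0.682% and 10.8 ± 0.519%, overlapped. GALNT1 and GALNT7 together held 68.1 ± 1.32% in pGIPZ-NC and 59.1 ± 1.14% in shUSP39. The summed level of the family was 111 ± 1.65 RPKM and 105 ± 2.10 RPKM (SD, n = 3 each), with all shUSP39 libraries below all controls. Of all tested genes, taken singly, 22.5% lay below in this way. The sum hides opposite changes. Mean GALNT1 went from 44.2 to 33.2 RPKM and GALNT7 from 31.8 to 28.7. GALNT10 went from 12.7 to 15.0 RPKM, GALNT12 from 3.63 to 4.996 and GALNT18 from 0.149 to 4.79. In bulk RNA, fewer cells with a transcript and less of it per cell cannot be told apart.

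**Figure D3:**
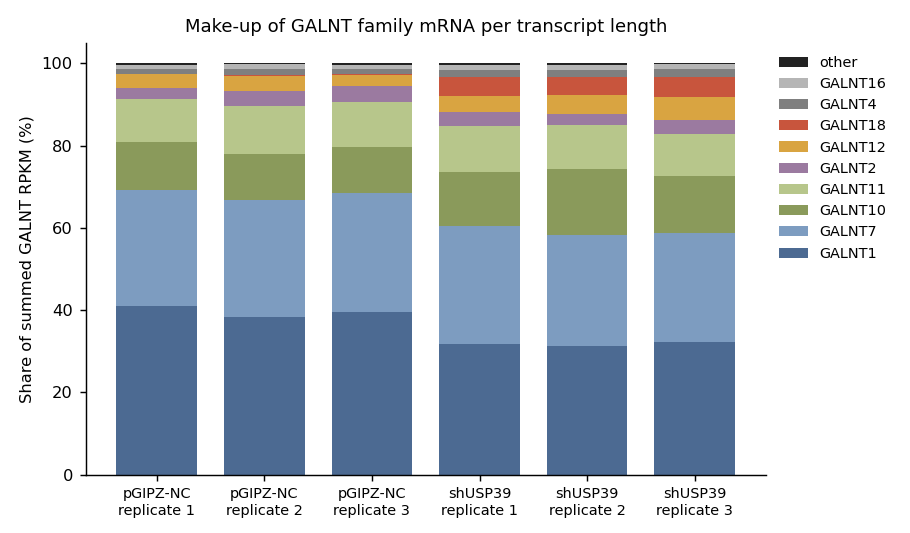
Share of each GALNT gene in the summed RPKM of the 17 family genes, in percent, as 1 stacked bar per library. GALNT1 takes 38.4% to 41.0% of the bar in the 3 pGIPZ-NC libraries and 31.3% to 32.2% in the 3 shUSP39 libraries, where GALNT18 appears at 4.40% to 4.80%.

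The other members of the GALNT family were examined next, since they share the reaction but were not on the list. Of 10 such genes 7 had a row and 3 were tested, and 1 of these passed the adjusted p, where 33.6% of all genes did, and the median log2 fold change was -0.01 against 0.01. GALNT4, which prefers peptides that already carry GalNAc, had 219, 274 and 194 counts in pGIPZ-NC and 316, 283 and 328 in shUSP39. GALNT4 rose by a log2 fold change of 0.44 (edgeR quasi-likelihood adjusted p = 0.0160, SE 0.14). Without pGIPZ-NC replicate 1, pGIPZ-NC replicate 3 or shUSP39 replicate 3 the adjusted p was 0.0654, 0.0690 and 0.0890. A readthrough transcript with POC1B shares its single exon.

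GALNT16 was level, with a log2 fold change of -0.01 (edgeR adjusted p = 0.965, SE 0.17). The relatives of GALNT18 in its subfamily were scarce, and these genes were chosen after their values were seen. GALNT17 had 31, 5 and 14 counts in pGIPZ-NC and 8, 10 and 7 in shUSP39, with a log2 fold change of -0.98 (edgeR adjusted p = 0.273, SE 0.66). GALNT8 had 0 counts in each control and 4, 11 and 3 in shUSP39, with the highest in replicate 2, the library with the most genes detected. GALNT9 had 1, 1 and 2 counts in pGIPZ-NC and 12, 7 and 1 in shUSP39. GALNT8 and GALNT9 were under the filter and were not tested. Whether the larger number of genes detected in shUSP39 replicates 2 and 3 has a part in these low counts was not tested either.

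The genes around GALNT18 were compared, since position was not used to choose the members. The nearest coding genes with a row on either side were ZBED5, 412081 bases away, and USP47, 219418 bases away. ZBED5 had 60, 34 and 56 counts in pGIPZ-NC and 104, 55 and 59 in shUSP39, a log2 fold change of 0.53 (edgeR adjusted p = 0.210, SE 0.31). USP47, a deubiquitinase, had 33, 18 and 15 counts in pGIPZ-NC and 27, 40 and 20 in shUSP39, a log2 fold change of 0.41 (edgeR adjusted p = 0.540, SE 0.46). Both sets of libraries overlapped.

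CSNK2A3, chosen after its values were seen, is a single-exon gene inside GALNT18 on the same strand, at 11373489 to 11374797 of chromosome 11, and it rose. It had 20, 11 and 18 counts in pGIPZ-NC and 44, 41 and 40 in shUSP39, a log2 fold change of 1.34 (edgeR adjusted p = 0.0151, SE 0.42), and 0.0708 without pGIPZ-NC replicate 2. CSNK2A3 is a near-identical copy of CSNK2A1, so its counts are uncertain, as are those of genes within others where use of strand is not stated. Whether these counts have a part in the GALNT18 row was not tested.

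Counting the nearest gene on each side of every member and no overlapping gene, 20 genes had a row and 12 were tested. Of these 2 rose and 2 fell, at a median log2 fold change of 0.04. The share past the adjusted p, 33.3%, was close to the 33.6% of all tested genes. PGBD5, a gene derived from a transposase, lies 32368 bases beyond GALNT2 on the opposite strand. It had 33, 23 and 58 counts in pGIPZ-NC and 829, 713 and 737 in shUSP39, a log2 fold change of 4.31 (edgeR adjusted p = 8.27e-13, SE 0.21). GALNT2 itself was at -0.25. ANKS6, beside GALNT12, rose by 0.18 (edgeR adjusted p = 0.00323), and PRKAG2, beside GALNT11, fell by 0.24 (edgeR adjusted p = 0.0316), but the latter did not pass without pGIPZ-NC replicate 2 or 3 or shUSP39 replicate 1 or 3 (adjusted p = 0.0607 to 0.109, edgeR) or under upper-quartile or library-size scaling. These last 2 genes were named after their values were seen. TTC21B, beside GALNT3, fell by 0.26 (edgeR adjusted p = 0.0183, SE 0.08), while GALNT3 was too low to test. The adjusted p of TTC21B was 0.135 without pGIPZ-NC replicate 1 and 0.104 without shUSP39 replicate 3, and without the latter 2 of the neighbours passed in place of 4.

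The genes whose log2 CPM followed GALNT18 most closely over the 6 libraries were DLX2 (Pearson's r 0.9993), TAGLN2 (0.9981), NFKBID (0.9979), HES2 (0.9974) and MAPK11 (0.997). The 6 points fall into 2 groups and share their depth, so these values mainly restate a gap between groups, and 34 of 10694 genes had an r over 0.99. The size of change differed among them, from a log2 fold change of 0.29 for MAPK11 to 3.58 for HES2. HES2 had 3 to 13 counts in pGIPZ-NC and 101 to 139 in shUSP39.

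The steps after GalNAc is attached were described from lists of known enzymes. Of 7 genes of core extension 3 were tested, and 1 passed the adjusted p, at a median log2 fold change of 0.07. This is 33.3% of those tested, against 33.6% of all tested genes. GCNT4, a core branching enzyme, had 449, 386 and 332 counts in pGIPZ-NC and 597, 582 and 708 in shUSP39. GCNT4 rose by a log2 fold change of 0.71 (edgeR adjusted p = 1.95e-05, SE 0.11). C1GALT1, which makes the common core 1 and was chosen after its values were seen, was at 80.5 ± 1.57 CPM and 80.4 ± 2.95 CPM (SD, n = 3 each). Its chaperone C1GALT1C1, also chosen afterwards, had at most 6 counts. Counts may leave out reads that transcripts of a gene share, so this does not show that its mRNA was absent.

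Of 20 genes of elongation, sialylation, fucosylation and sulfation 9 were tested, of which 1 rose and 1 fell, with a median of 0.09. Past the adjusted p were thus 22.2% of those tested, against 33.6% of all tested genes. B3GNT2, which extends chains with N-acetylglucosamine, rose by a log2 fold change of 0.39 (edgeR adjusted p = 0.0215, SE 0.13), with adjusted p = 0.117 without pGIPZ-NC replicate 3 and 0.0930 without shUSP39 replicate 2. GAL3ST2, a sulfotransferase, had 37, 30 and 19 counts in pGIPZ-NC and 14, 12 and 8 in shUSP39, and fell by 1.32 on the log2 scale (edgeR adjusted p = 0.0451, SE 0.50). With any 1 library left out its adjusted p lay between 0.0503 and 0.196, and under upper-quartile scaling, library-size scaling, no filter or limma-voom between 0.0503 and 0.0690.

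Supply of the sugar donors was described with 17 genes, of which 14 were tested, 2 rose and 2 fell, with a median of 0.06. The share past the adjusted p was 28.6%, against 33.6% of all tested genes. GFPT2, which starts the hexosamine pathway that leads to UDP-GlcNAc and UDP-GalNAc, had 743, 766 and 733 counts in pGIPZ-NC and 1212, 1293 and 1269 in shUSP39. GFPT2 rose from 24.3 ± 1.46 to 41.0 ± 2.73 CPM (SD, n = 3 each), a log2 fold change of 0.76 (edgeR adjusted p = 2.71e-08, SE 0.08). CMAS, which activates sialic acid, fell by 0.62 on the log2 scale (edgeR adjusted p = 2.62e-06, SE 0.09).

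**Figure D4:**
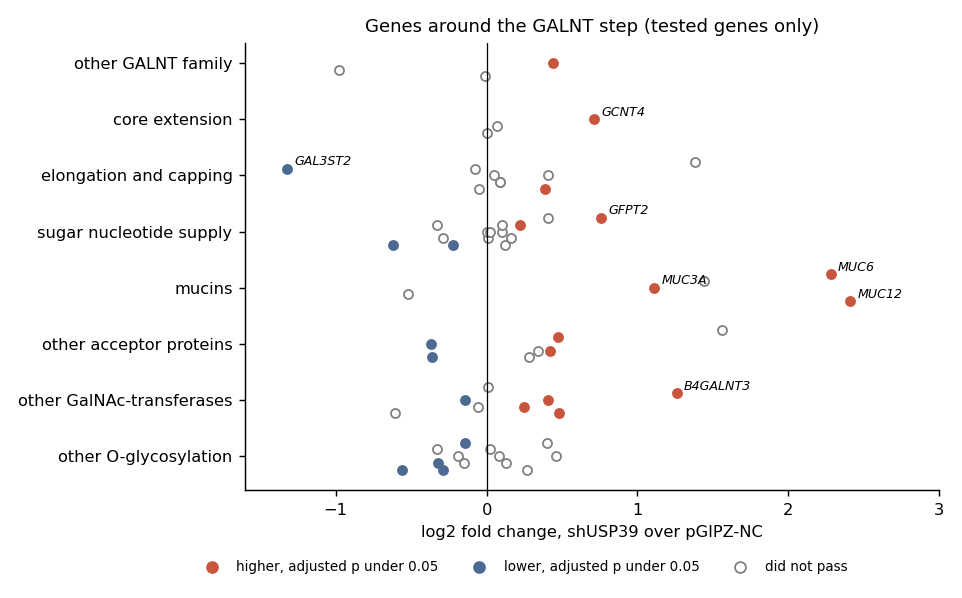
Log2 fold change (shUSP39 over pGIPZ-NC) of the tested genes in 8 lists around the GALNT step, 1 point per gene, filled where the adjusted p was under 0.05. Most points lie within 1 of no change, and the filled points beyond it are GAL3ST2 at -1.32, MUC3A at 1.11, B4GALNT3 at 1.26, MUC6 at 2.28 and MUC12 at 2.41.

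The acceptor proteins were divided into mucins, whose tandem repeats carry dense O-glycans, and others. Of 17 mucins 12 had a row and 5 were tested, and 3 of these rose, where 16.1% of all tested genes did, at a median log2 fold change of 1.44. With shUSP39 replicate 1 alone 6 were tested, 1 passed the adjusted p and the median was 0.01. MUC3A, a membrane mucin of the gut, had 157, 136 and 156 counts in pGIPZ-NC and 305, 347 and 317 in shUSP39. MUC3A rose by a log2 fold change of 1.11 (edgeR adjusted p = 1.60e-06, SE 0.15), with the same direction with shUSP39 replicate 1 alone, at 0.97 (adjusted p = 0.00149, edgeR).

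MUC6 and MUC12 were high in the 2 libraries that stood apart. MUC6, a gel-forming mucin of the stomach, had 12, 12 and 11 counts in pGIPZ-NC and 18, 96 and 55 in shUSP39, a log2 fold change of 2.28 (edgeR adjusted p = 0.000748, SE 0.50), and 0.57 (adjusted p = 0.740) with shUSP39 replicate 1 alone. MUC12 had 9, 6 and 15 counts in pGIPZ-NC and 8, 94 and 58 in shUSP39, a log2 fold change of 2.41 (edgeR adjusted p = 0.00928, SE 0.67). Its adjusted p was 0.108 without pGIPZ-NC replicate 1, 0.106 without pGIPZ-NC replicate 2, 0.0725 without shUSP39 replicate 2 and 0.349 under limma-voom. With shUSP39 replicate 1 alone MUC12 was at -0.40 (adjusted p = 0.872, edgeR). The count of MUC12 in shUSP39 replicate 1 lay within the controls.

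Among mucins chosen after their values were seen, MUC16, the carrier of the CA125 antigen used to monitor ovarian cancer, had 5, 1 and 1 counts in pGIPZ-NC and 6, 150 and 71 in shUSP39. MUC4 had 0 counts in each control and 7, 145 and 78 in shUSP39. MUC1 had 8, 0 and 9 counts in pGIPZ-NC and 8, 8 and 2 in shUSP39. MUC16 and MUC4 were high in shUSP39 replicates 2 and 3, the libraries with the most genes detected, and low in replicate 1. Whether that property of the libraries has a part in these values was not tested.

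**Figure D5:**
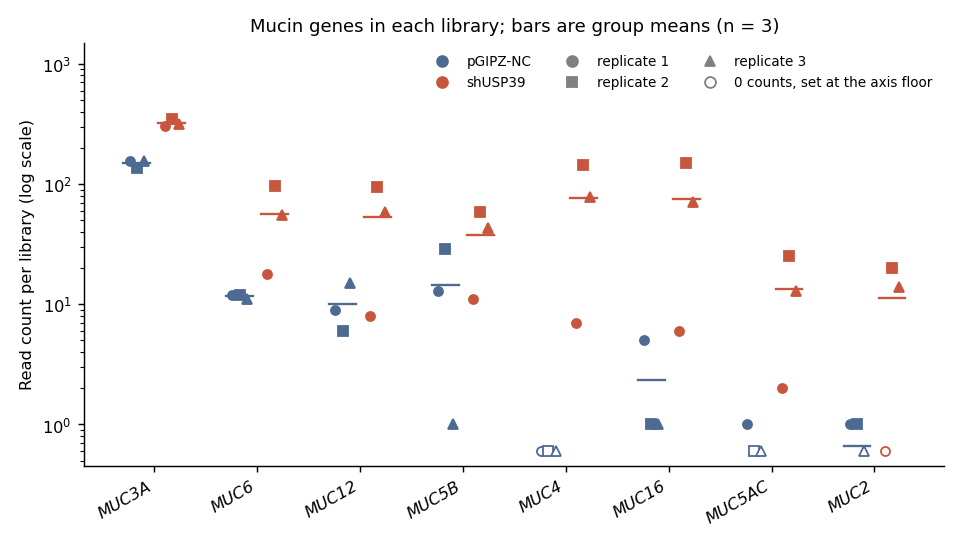
Read counts of 8 mucin genes in each library on a log axis, with bars for the group means (n = 3 libraries) and open symbols for a count of 0. MUC3A is higher in all 3 shUSP39 libraries, while for MUC6, MUC12, MUC4 and MUC16 the high values are those of shUSP39 replicates 2 and 3.

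Of 20 other acceptor proteins 7 were tested, of which 2 rose and 2 fell, with a median of 0.34. The share past the adjusted p was 57.1% of these few genes, against 33.6% of all tested genes. NOTCH1, a receptor that GALNT11 can modify, rose from 286 ± 16.3 to 395 ± 22.0 CPM (SD, n = 3 each), a log2 fold change of 0.47 (edgeR adjusted p = 2.56e-09, SE 0.04). TNFRSF10B, a death receptor, rose by 0.42 (edgeR adjusted p = 0.00439, SE 0.11). LRP1, a receptor of the LDL receptor family, and PODXL2, a sialomucin, both named after their values were seen, fell by 0.37 and 0.36 on the log2 scale (edgeR adjusted p = 3.81e-07 and 2.64e-06, SE 0.05 each).

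Other GalNAc-transferases and other kinds of O-glycosylation were compared as related pathways. Of 12 GalNAc-transferases outside the mucin type 8 were tested, of which 4 rose and 1 fell, with a median of 0.13. The share past the adjusted p was 62.5% of these few genes, against 33.6% of all tested genes. B4GALNT3, which makes the LacdiNAc unit, had 493, 579 and 445 counts in pGIPZ-NC and 1215, 1344 and 1059 in shUSP39. B4GALNT3 rose by a log2 fold change of 1.26 (edgeR adjusted p = 2.26e-11, SE 0.09). CHPF, of chondroitin chain synthesis, rose by 0.48 (edgeR adjusted p = 7.59e-08, SE 0.05).

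Of 18 enzymes of O-mannose, O-fucose, O-GlcNAc and O-xylose pathways 13 were tested, with a median of -0.14. Past the adjusted p in edgeR were 4, all of them lower. This is 30.8% of those tested, where 33.6% of all tested genes passed and 17.5% were lower. B4GAT1, of the O-mannose pathway, fell by 0.56 on the log2 scale (edgeR adjusted p = 1.48e-08, SE 0.06), from 91.6 ± 2.41 to 62.0 ± 3.40 CPM (SD, n = 3 each). POMGNT1, of the same pathway, fell by 0.32 (edgeR adjusted p = 0.00360, SE 0.08).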

How the data were processed

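RNA-seq of 6 A2780 libraries was analysed, 3 pGIPZ-NC and 3 shUSP39, grouped by their labels. The authors deposited read counts per RefSeq messenger RNA transcript, with 1 column per library. The submitters' processing notes name HISAT2, Cufflinks and build hg19, but not which tool counted, its annotation or its use of strand. The deposited columns of group signal, fold, p-value and q-value were not used. Counts may leave out reads that transcripts of a gene share. GALNT1, GALNT7, GALNT11 and GALNT18 have 1 row but more RefSeq transcripts today, and GALNT14 has 3 rows but 6 transcripts. The levels of these genes may be too low.

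Rows were summed per symbol (21368 to 16571). Symbols in the form of a date numbered 47, of which 46 were replaced through the transcript. edgeR 4.0.16 in R 4.3.3 was used with filterByExpr, TMM (trimmed mean of M-values) scaling, robust quasi-likelihood and group as the only term, on all 6 libraries. P-values were adjusted by Benjamini-Hochberg over 10695 genes, and genes were called under 0.05 and over 2-fold. The standard error is the absolute log2 fold change over the square root of F. CPM used TMM factors. RPKM divided CPM by the length of the MANE Select transcript, or of the longest coding one, in GENCODE mapped to GRCh37, the source of all gene positions. Promoters were RefSeq, GRCh38.p14.

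Members and gene lists were chosen with earlier results of these data known. Of the lists, 2 genes are not reported here and were left out of the counts. Named genes were all members, the called genes and the 2 largest changes past the adjusted p in each list, the neighbours of GALNT18 and the 5 genes most like it. The fit was tested on simulated data. Alternatives were scaling by DESeq2 1.42.0 size factors, by upper quartile or by library size, leaving out the filter, a minimum of 10 counts per library, DESeq2's Wald test, limma-voom (limma 3.58.1), the replicate number as a block, the highest transcript a gene and each library left out. shUSP39 replicate 1 alone was added after seeing the data. The design text calls the libraries biological triplicates. Replicates of a group differed by more than sampling noise (chi-square over its degrees of freedom 4.75 or more).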

Additional observations from a re-analysis of the deposited data

How the results depend on the processing

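Genes called over the whole table numbered 728, between 677 and 836 with a library left out, 940 without a filter, 471 with at least 10 counts in every library, which tests fewer genes, and 597 with shUSP39 replicate 1 alone. Upper-quartile scaling moved the share of higher genes among those past the adjusted p from 48.0% to 58.0%. GALNT18 was not tested at 10 counts. The sign of each tested member held in every alternative run. Past the adjusted p, other GALNT genes numbered 1, with 2 without a filter, 0 to 1 with a library left out and 0 with shUSP39 replicate 1 alone. Elongation and capping genes numbered 2, with 1 at 10 counts, 1 under limma-voom, 0 to 3 with a library left out and 0 with shUSP39 replicate 1 alone. Mucins numbered 3, with 8 without a filter, 2 to 8 with a library left out (8 without shUSP39 replicate 1) and 1 with shUSP39 replicate 1 alone, where MUC12 was at -0.40. Other GalNAc-transferases fell from 5 to 3 and neighbours from 4 to 1 with that library alone, and neighbours numbered 2 to 4 with a library left out. With shUSP39 replicate 1 alone the lone library is assumed to vary like the controls, and fewer samples enter the test. For the rest the cause was not tested.

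The replicate number as a block gave 745 calls. Same-numbered libraries correlated at 0.0688, 0.00477 and 0.0216 in their deviations, and not every library correlated best with its own number, so the numbers were not taken as pairs. The block changed no other call named here than that of GAL3ST2 (adjusted p = 0.0553, edgeR).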
